A study of Bos taurus with 48 samples.

Results

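The SLC25 family, the carriers that move metabolites, nucleotides, cofactors and iron across the inner mitochondrial membrane, was followed in the liver of 32 grazing dairy cows around calving. Its members were taken as every array spot whose gene name began with SLC25A, apart from SLC25A13 and SLC25A15. This gave 76 of 43803 spots, and after probes of the same gene were averaged, 46 of 17401 genes or single probes. The annotation had lost the digit 0 at the end of names, so that 4 written names could each stand for a pair of genes: SLC25A1 (or SLC25A10), SLC25A2 (or SLC25A20), SLC25A3 (or SLC25A30) and SLC25A4 (or SLC25A40). Their 15 probes were kept apart and are named by probe. The other 31 members were single genes, and all 46 members passed the minimum of 24 measured arrays and were tested.

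The cows were adult dairy cows of mixed breed and age at pasture, brought to a body condition score (BCS, on a 10-point scale) of 4 or 5 before calving and then given 75 or 125% of their estimated energy requirement, through pasture allowance, during the last 3 weeks before calving. The groups are B5F125, B5F75, B4F125 and B4F75, with 8 cows each, and liver biopsies were taken 7 d before calving (−7 d) and 7 and 28 d after it. By the study's account the B5F125 cows were the youngest on average. Breed was uneven too. Pure-bred New Zealand Holsteins were most numerous in B5F75 and fewest in B4F125. The crossbred cows of B5F125 had the lowest average share of Holstein blood. Neither age nor breed was a term of the fit, and their part in the group differences was not tested. Each of 48 two-colour Agilent arrays set the RNA of 1 cow against that of another. Of these, 36 arrays (12 cow pairs) compared treatments within a day and 12 arrays (4 cow pairs, 1 per treatment) compared days within a treatment, always between different cows. RNA came from whole tissue, so fewer cells of a type and less RNA per cell cannot be told apart. The p-values and SEs below measure the spread between cow pairs and arrays, pooled over all 48 arrays, most of them within a day. For the comparisons of days they do not measure the spread of those 4 cow pairs alone.

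Mitochondrial carriers share a fold of repeated membrane-spanning segments and exchange a substrate on one side of the membrane for another on the other side. The ADP/ATP and phosphate carriers supply the ATP synthase with ADP and phosphate and return ATP to the cytosol. In the liver of a cow that begins to produce milk, carriers for citrate, malate, oxoglutarate and aspartate link glucose synthesis, fat metabolism and redox balance in the cytosol with the mitochondrion. The acylcarnitine carrier, encoded by SLC25A20, lets long-chain fatty acids in for oxidation. These functions are background from the wider field and are not results of the arrays.

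The deposited values are log2 ratios of the 2 dyes on an array, with no intensities, so levels of different carriers cannot be set against each other. Blanks made up 15.95% of all values (1.425% to 21.49% per array). How bright a spot was could be read only from its ratios: a dim spot yields ratios of small whole numbers (up to 20 over 20, to within 2e-09 on the log2 scale). Of the 76 carrier spots, 37 had such ratios on at least 10% of their arrays, against 68.2% of all spots. The residual SD, the spread left on an array after the fitted group means, had a median of 0.41 (0.27 to 0.80) in the 20 members whose every probe was under that limit. It had a median of 0.71 (0.38 to 1.14) in the other 26 members and of 0.59 over all genes. Dim carriers thus varied more from array to array than bright ones.

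No source names the dye on top of the ratio. It was read as Cy5 over Cy3, the usual order for this scanner. The directions of the feeding and BCS comparisons rest on that reading and are not settled. Nor are the directions between days. Within each of the 12 cow pairs that compared treatments, dyes were swapped at 7 d. The 7 d ratios ran opposite to those of the same pair at −7 d in 11 of the 12 pairs (r −0.25 to 0.04 over 11383 genes) and to those at 28 d in 12 of 12 (r −0.34 to −0.02), whereas −7 d and 28 d ran the same way (r 0.08 to 0.44). For the 12 arrays that compared days, the labels and well-known genes disagreed. As labelled, 13 of 15 genes with a textbook response to calving ran opposite to it between −7 and 7 d, including 8 of the 8 with p under 0.05. HP, the acute-phase protein haptoglobin, was at −3.58 ± 0.87 (SE), and IGF1, a growth factor that normally falls at calving, was at 0.91 ± 0.26. This list of 15 was put together with the values already known. Reading Cy3 over Cy5 on all 48 arrays would turn every sign, between days and in the feeding and BCS comparisons alike. Whether that, or an exchange on the 12 day arrays alone, lies behind the disagreement was not tested. All signs are given with Cy5 on top and with the days as labelled. With the channels of those 12 arrays exchanged, the day differences of the 37 members measured on all 48 arrays kept their size and turned their sign. Of the 9 members with blanks, 3 kept their sign in 1 comparison each: the SLC25A2 probe A_73_103603 (0.03 as labelled and 0.24 exchanged) and SLC25A31 (−0.59 and −0.03) at 28 vs −7 d, and SLC25A36 (−0.18 and −0.03) at 28 vs 7 d.

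Between days, no SLC25 member passed the threshold (p no higher than 0.01, unadjusted, with at least a 1.5-fold difference in the limma fit) at 7 vs −7 d, at 28 vs −7 d or at 28 vs 7 d. Over all genes tested, 1.5%, 2.11% and 1.9% passed in the 3 comparisons. At 7 vs −7 d, 37 of 46 members lay below 0 as labelled, with a median of −0.18, where 52.8% of all genes lay below 0 with a median of −0.02. At 28 vs −7 d, 28 members lay below 0 (median −0.17), against 49.6% of all genes (median 0.00). At 28 vs 7 d 27 lay above 0 (median 0.08), against 52.2% of all genes (median 0.02). With the channels exchanged, 37 members lay above 0 at 7 vs −7 d and 28 at 28 vs −7 d, and 28 lay below 0 at 28 vs 7 d. A p under 0.05 was met by 5, 6 and 3 members, or 10.9%, 13% and 6.52% of them, against 8.22%, 11.5% and 10.5% of all genes. The 95% interval of the difference stayed within 1.5-fold either way for 17 members in each comparison, so for the other 29 a change of that size was not excluded by the spread.

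**Figure D1:**
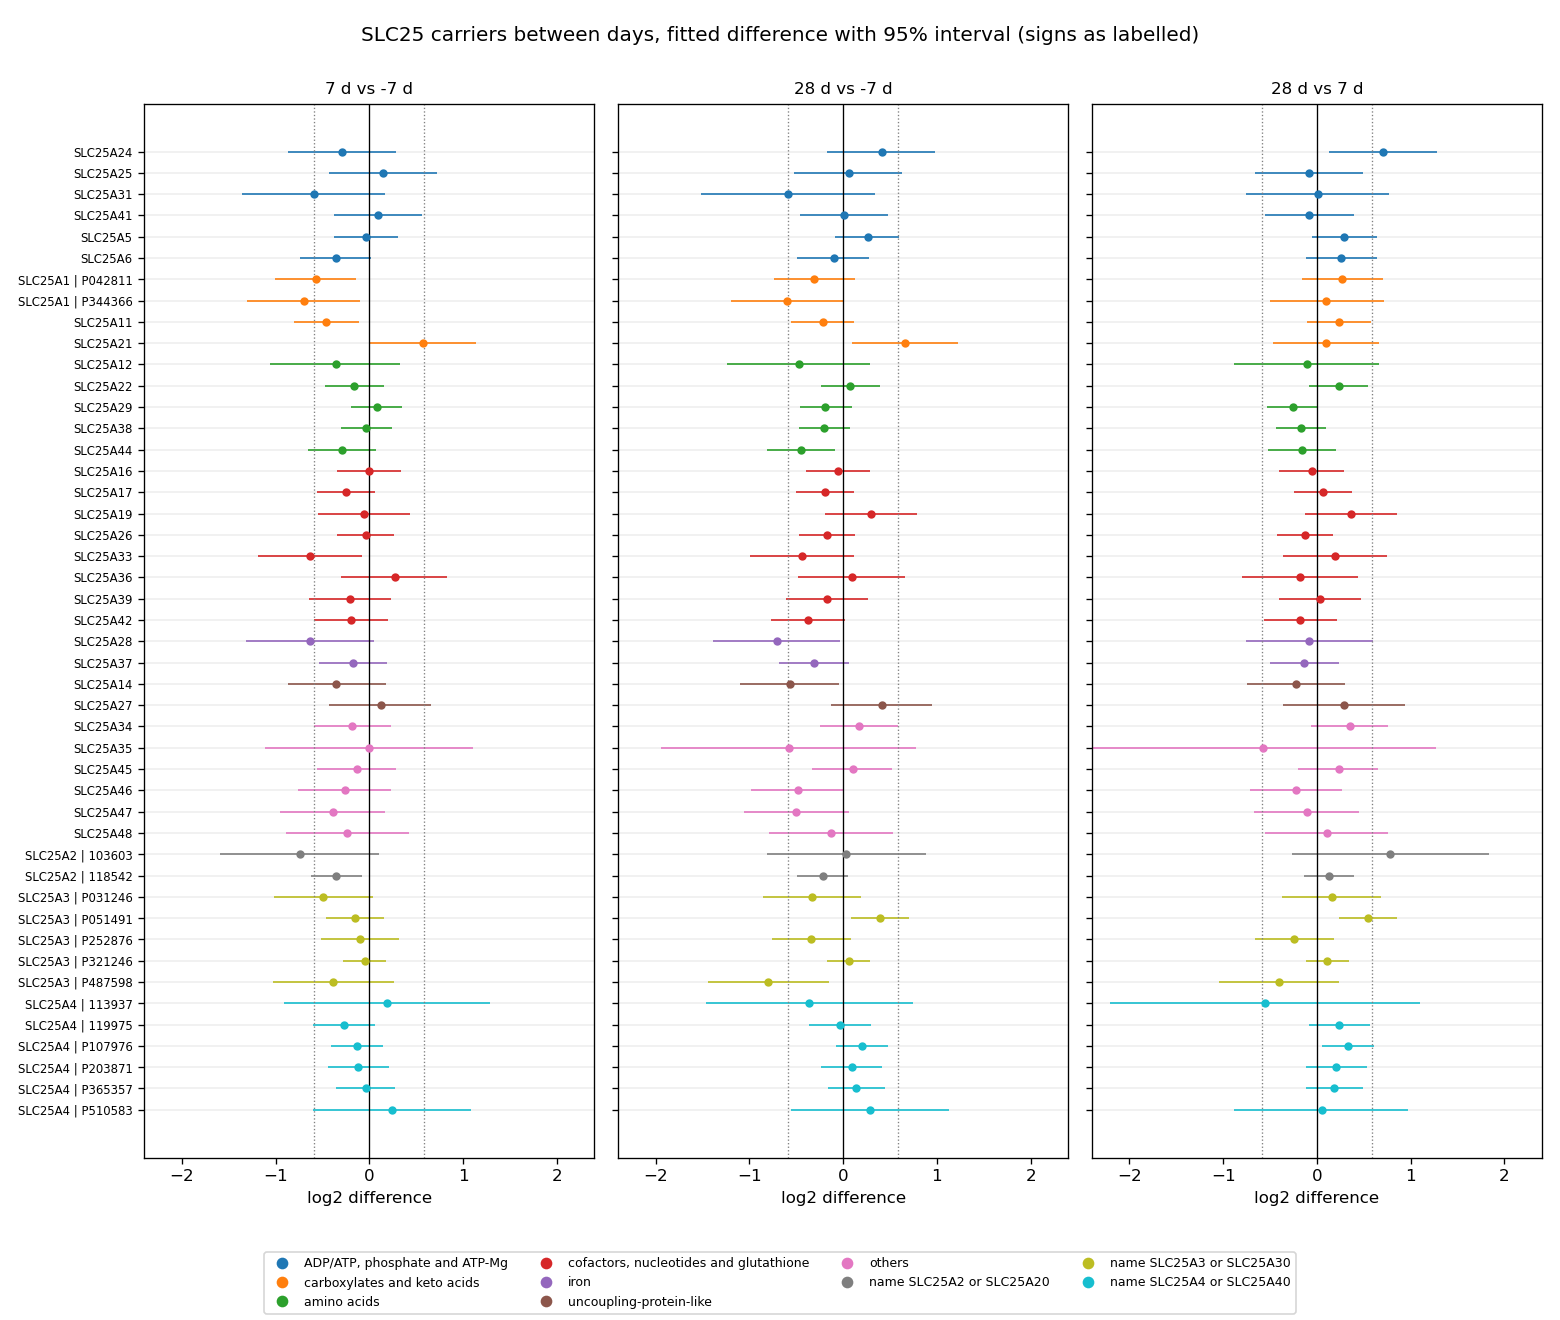
Fitted log2 difference between days for each of the 46 SLC25 members, with its 95% interval. The panels show 7 vs −7 d, 28 vs −7 d and 28 vs 7 d, the colours the carrier groups, and the dotted lines a 1.5-fold difference. At 7 vs −7 d 37 members lie below 0 as labelled, and no member passed the threshold in any panel.

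The direct arrays behind the shift at 7 vs −7 d came from few cows, and the treatments differed. On the direct arrays the median over members was 0.04 in B5F125, 0.05 in B5F75, −0.09 in B4F125 and −0.38 in B4F75, with 21, 20, 27 and 34 of 46 members below 0. Only the BCS4 arrays, and mainly that of B4F75, showed the family on the lower side. When each cow pair was left out in turn, the fitted median over members ran between −0.29 and −0.15. In these fits 33 to 37 of 46 members lay below 0. Without the cow pair of B4F75 the fitted median was −0.15, with 33 members below 0. The fitted shift thus did not rest on that cow pair alone. With the ratios as deposited, without centring, the median was −0.24, beside −0.08 over all genes.

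Among the carboxylate carriers, which exchange citrate, malate and oxoglutarate, 3 of 4 members had p under 0.05 at 7 vs −7 d, all below 0, with a group median of −0.52, where 8.22% of all genes had such a p. Of the 3, 2 were the SLC25A1 probes, which correlated over the arrays (r = 0.71), and either gene that name can stand for (the citrate carrier or the dicarboxylate carrier SLC25A10) falls in this group. Probe A_73_P042811 read −0.05 in B5F125, 0.85 in B5F75, −0.40 in B4F125 and −2.32 in B4F75. The array of B4F75 was far the lowest and that of B5F75 lay on the other side of 0. The SD over these 4 arrays was 1.33, whereas the SE of the fit was pooled over all arrays. The fitted difference was −0.57 ± 0.21 (adjusted p = 0.438), and for probe A_73_P344366 −0.70 ± 0.30 (adjusted p = 0.51). SLC25A11, the oxoglutarate carrier of the malate-aspartate shuttle, read −0.29 in B5F125, 0.54 in B5F75, −0.35 in B4F125 and −1.36 in B4F75, the same order of arrays. Its fitted difference was −0.46 ± 0.17 (adjusted p = 0.435 by the limma fit), the lowest p of any member below 0 there. SLC25A21, the oxodicarboxylate carrier, stood apart from these, at 0.25, 0.68, 0.94 and 2.26 on the same 4 arrays, all above 0, with a fitted 0.57 ± 0.28 (adjusted p = 0.605).

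SLC25A21 was also the member with the largest positive difference at 28 vs −7 d (0.66 ± 0.28, adjusted p = 0.358), and its 2 probes parted there. The bright probe A_73_105285 alone gave 0.89 ± 0.30 (adjusted p = 0.202), past the threshold when probes were fitted one by one, and the dim probe A_73_P069346, with small whole-number ratios on 100% of its arrays, gave −0.10 ± 0.57. SLC25A12, the aspartate-glutamate carrier of the same shuttle as SLC25A11, was dim (83.7% small ratios). It read −0.46, −1.58, 0.12 and 0.74 in B5F125, B5F75, B4F125 and B4F75 at 7 vs −7 d, and the 95% interval of the fitted −0.36 ± 0.34 (−1.06 to 0.33) included 0. The 4 arrays of SLC25A12 thus ran in the reverse order of those of SLC25A11.

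At 28 vs 7 d several ADP/ATP and phosphate carriers lay above 0 on each direct array, and none passed the threshold. Of 39 members measured on all 4 direct arrays, 10 lay above 0 on each of them, against 7.07% of all genes, and 1 lay below 0 on each, against 6.34%. Of these, 6 belonged to the ADP/ATP and phosphate carriers or to the written names that can stand for them: SLC25A5, SLC25A6, the SLC25A4 probes A_73_119975, A_73_P107976 and A_73_P203871, and the SLC25A3 probe A_73_P051491. Probes of 1 name can measure 1 transcript, so these are not separate members of the family. The other SLC25A4 probes did not share the pattern. A_73_P365357 read −0.21 in B4F125 and A_73_P510583 read −0.43 in B5F75. A_73_113937 had no value on these direct arrays and a fitted −0.55. The remaining 4 of the 10 were SLC25A11, SLC25A17 (0.00 after rounding on 1 array), SLC25A22 and SLC25A28. The 1 below 0 was SLC25A37. In the fit across all arrays both iron carriers, SLC25A28 and SLC25A37, lay below 0 there (−0.14 to −0.08), so SLC25A28 changed side.

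The SLC25A3 probe A_73_P051491 read 0.40 in B5F125, 0.79 in B5F75, 0.80 in B4F125 and 0.96 in B4F75 at 28 vs 7 d, with all 4 arrays close together and far from 0. The fitted difference was 0.54 ± 0.15, just short of 1.5-fold (a log2 difference of 0.585). Its adjusted p of 0.163 in the limma fit was the lowest of any member in any comparison. At 28 vs −7 d it was at 0.39 ± 0.15 (adjusted p = 0.325), from arrays at 0.03, 0.34, −0.12 and 0.51. If the name stands for SLC25A3, this is the phosphate carrier. If it stands for SLC25A30, it is a relative of the uncoupling proteins. The other 4 probes of the name gave 0.16, 0.11, −0.24 and −0.41 in the same comparison, so the probes of this name did not move together.

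SLC25A5, which with SLC25A4 and SLC25A6 encodes the ADP/ATP carriers, read 0.39 in B5F125, 0.32 in B5F75, 0.53 in B4F125 and 0.57 in B4F75 at 28 vs 7 d. The 4 arrays lay close together on 1 side of 0. The fit, which also draws on indirect paths through the other arrays, gave 0.29 ± 0.17 (adjusted p = 0.566). SLC25A6 read 0.26, 0.47, 0.28 and 0.64 on the same arrays (fitted 0.26 ± 0.19, adjusted p = 0.668), and the SLC25A4 probe A_73_P107976 read 0.65, 1.01, 0.24 and 0.28 (fitted 0.33 ± 0.14, adjusted p = 0.375). All lay above 0 on the direct arrays, and none of the 3 passed the threshold. At 7 vs −7 d the same members read between −1.04 and 0.89 with no common side. Leaving out each cow pair in turn moved the median over all 46 members at 28 vs 7 d between −0.08 and 0.15, so the side of the family as a whole there was not stable.

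**Figure D2:**
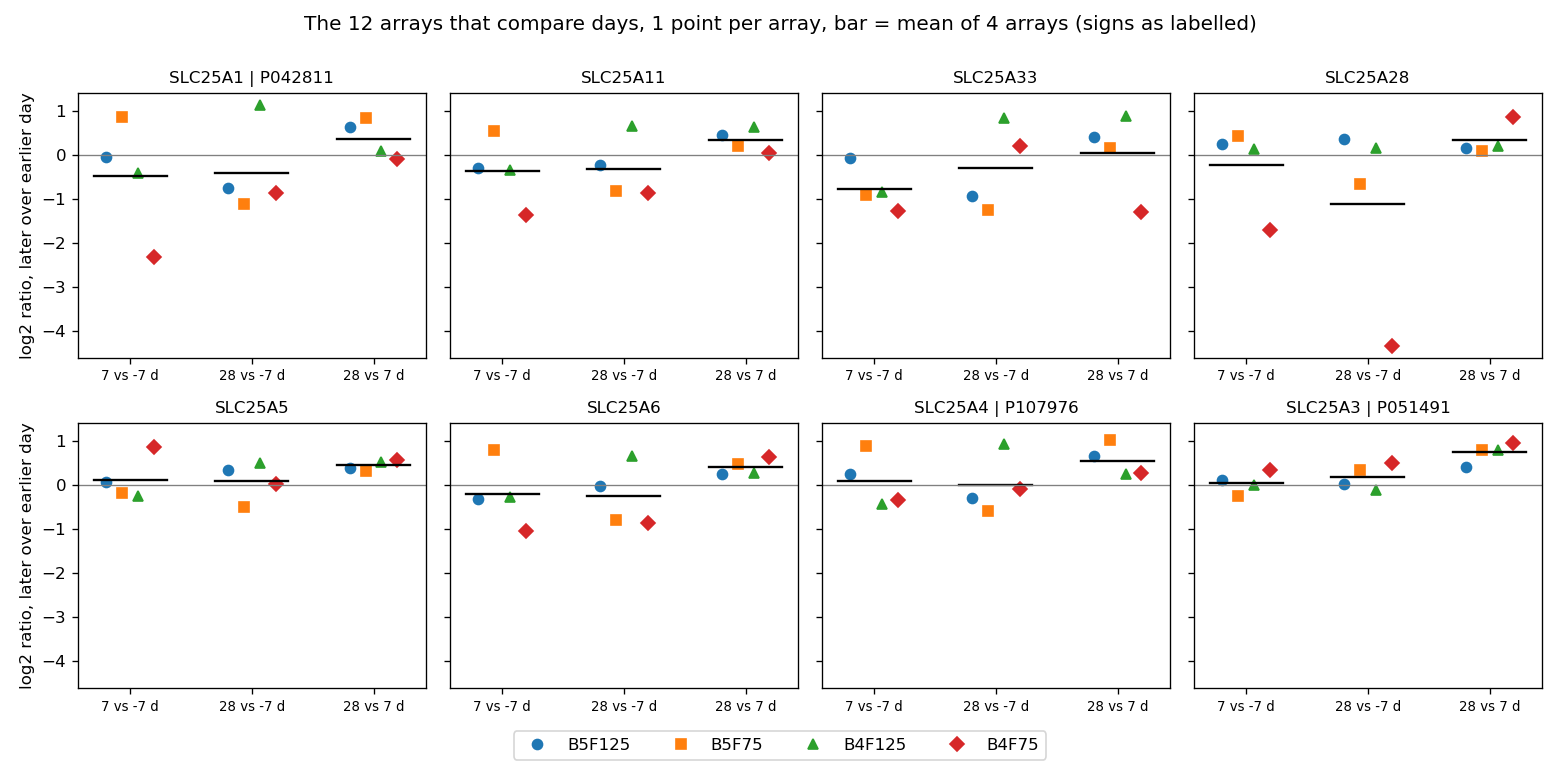
The log2 ratio of later over earlier day on each of the 12 arrays that compared days, for 8 SLC25 members. Symbols stand for the treatments, bars for the mean of 4 arrays. In SLC25A5, SLC25A6 and the SLC25A4 and SLC25A3 probes all 4 points at 28 vs 7 d lie above 0, while SLC25A28 has 1 point at −4.33 and 3 between −0.66 and 0.37 at 28 vs −7 d.

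The ATP-Mg/phosphate carriers, which change the adenine nucleotide pool of the mitochondrion, differed among themselves between days. SLC25A24 was at 0.70 ± 0.28 at 28 vs 7 d (adjusted p = 0.36), from 4 probes that each had small whole-number ratios on 56.2% to 100% of arrays. SLC25A25 and SLC25A41 were at −0.09 ± 0.28 and −0.08 ± 0.23. SLC25A31, an ADP/ATP carrier known from testis, was dim in liver (90% small ratios) and was at 0.01.

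For the iron carriers, SLC25A28 (mitoferrin-2) showed how much a single cow pair could weigh. At 28 vs −7 d it read 0.37 in B5F125, −0.66 in B5F75, 0.15 in B4F125 and −4.33 in B4F75. The last array stood far from the other 3, which lay on both sides of 0, and the SD over all of them was 2.19. The fitted −0.71 ± 0.34 (adjusted p = 0.415) became 0.24 without the cow pair of B4F75. SLC25A37 (mitoferrin-1, the carrier of red cell precursors) was at −0.17 ± 0.18 at 7 vs −7 d and −0.31 at 28 vs −7 d. In the same comparisons the 7 erythroid markers measured of 12 had a median of 0.62 and 0.60, with 2 and 4 of them called, led by haemoglobin HBB at 1.82 and 1.80. Without its dim probes SLC25A37 was at −0.08 ± 0.17 at 7 vs −7 d and −0.12 ± 0.17 at 28 vs −7 d, so its side was not settled. Blood in the biopsy was measured only through these ratios, and its part in the carrier values was not tested.

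Among amino acid carriers, SLC25A44, the carrier of branched-chain amino acids, was at −0.45 ± 0.18 at 28 vs −7 d (adjusted p = 0.324), from direct arrays at 0.12, −1.15, −0.05 and −1.91 in B5F125, B5F75, B4F125 and B4F75. Its 3 probes differed: the dim A_73_P339176 (54.3% small ratios) gave −1.08 ± 0.38. The bright A_73_116440 and A_73_P336806 gave 0.01 ± 0.15 and −0.29 ± 0.17. Without the dim probe SLC25A44 was at −0.14 ± 0.14. The low arrays were those of B5F75 and B4F75. SLC25A22, the glutamate carrier, was at −0.16, 0.07 and 0.23 in the 3 comparisons of days. SLC25A38, the glycine carrier that feeds haem synthesis, was at −0.03, −0.20 and −0.17. SLC25A29, a carrier of basic amino acids, had the lowest p below 0 at 28 vs 7 d (−0.26 ± 0.13, adjusted p = 0.488). The 5 members of the group had a median of −0.16 at 7 vs −7 d and −0.20 at 28 vs −7 d.

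Of the carriers of cofactors and nucleotides, 6 of 8 lay below 0 at 7 vs −7 d (median −0.13). SLC25A33, a pyrimidine nucleotide carrier, read −0.07 in B5F125, −0.91 in B5F75, −0.85 in B4F125 and −1.28 in B4F75, below 0 on all 4 arrays. The fit gave −0.63 ± 0.27 (adjusted p = 0.53). SLC25A42, which carries coenzyme A, read −0.29, −0.20, −0.12 and −0.26 on those arrays, a small difference on 1 side, with a fitted −0.20 ± 0.19. Below 0 on all 4 arrays were in all 3 of 46 members, against 7.29% of all genes, and above 0 on all 4 was SLC25A21 alone, against 7.56%. SLC25A39, tied to mitochondrial glutathione import, was at −0.21, −0.17 and 0.03. SLC25A47, a carrier found mainly in liver, was at −0.39 ± 0.28, −0.50 and −0.11 in the 3 comparisons.

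The third member below 0 on all 4 arrays at 7 vs −7 d was the SLC25A2 probe A_73_118542, at −0.21, −0.24, −0.72 and −0.39 in B5F125, B5F75, B4F125 and B4F75 (fitted −0.35 ± 0.13, adjusted p = 0.447). It was bright and well measured, with all 4 values on 1 side. The name fits SLC25A2, an ornithine carrier, or SLC25A20, the acylcarnitine carrier, and the annotation does not say which. At 28 vs −7 d, 4 of 43 members lay below 0 on all 4 arrays (8.12% of all genes did) and SLC25A41 alone lay above 0 (8.23%).

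In BCS5 cows, the comparison of B5F125 vs B5F75 asked how feeding above against below requirement before calving changed the carriers in cows at the higher BCS. At −7 d 1 of 46 members passed the threshold, where 0.69% of all genes did. At 7 and 28 d none did, against 1.09% and 0.383% of all genes, and none did over the days, against 0.465%. A p under 0.05 was met by 5, 2 and 0 members at −7, 7 and 28 d and by 0 over the days, or 10.9%, 4.35%, 0% and 0%, against 4.13%, 4.95%, 1.97% and 3.19% of all genes. No member had an adjusted p under 0.867 in any comparison of feeding or BCS, so adjusted values are given only for the call and the interaction. The member called at −7 d was the SLC25A2 probe A_73_103603, at 1.61 ± 0.56 (95% interval 0.44 to 2.77, adjusted p = 1 by the limma fit). It was among the dimmest carrier probes, with small whole-number ratios on 97% of its arrays and values on 33 of 48. Of the 2 arrays that set B5F125 directly against B5F75 at −7 d, 1 was blank for it and the other read 0.58. Without the 12 arrays that compared days the difference was 1.30, and with their channels exchanged 0.04, neither past the threshold. The call was also lost when any of 10 of the 16 cow pairs was left out (1.18 to 2.18 over all 16). The bright probe of the same name, A_73_118542, was at 0.06 ± 0.16. At 7 d A_73_103603 lay on the other side, at −0.65 ± 0.52, with direct arrays at −0.06 and −1.77.

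Over the days, 34 of 46 members lay above 0 in B5F125 vs B5F75, with a median of 0.05. Of all genes 52.5% lay above 0, with a median of 0.01. The intervals of 29 members stayed within 1.5-fold. At single days the medians were 0.07, 0.02 and 0.07. Of 39 members measured on all 6 direct arrays, 3 were above 0 on each (SLC25A25, the SLC25A2 probe A_73_118542 and the SLC25A4 probe A_73_P203871), against 2.46% of all genes, and none was below 0 on each, against 1.8%.

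SLC25A25, an ATP-Mg/phosphate carrier regulated by calcium, had the largest mean of these, 0.82. On the arrays of B5F125 over B5F75 it read 0.44 and 1.68 at −7 d, 0.63 and 0.67 at 7 d, and 0.88 and 0.63 at 28 d, above 0 on 6 of 6. On the arrays of B4F125 over B4F75 it read −0.56 and −0.64 at −7 d, −0.27 and 0.14 at 7 d, and −0.67 and −0.95 at 28 d, below 0 on 5 of 6. The BCS5 and BCS4 arrays each came from 2 cow pairs (means 0.65 and 0.99 in BCS5, −0.50 and −0.48 in BCS4), with the dyes swapped at 7 d. Its 2 probes, A_73_116205 and A_73_P083271, correlated over the 48 arrays (r = 0.73), sharing RNA and labelling, and both lay above 0 on all 6 BCS5 arrays.

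**Figure D3:**
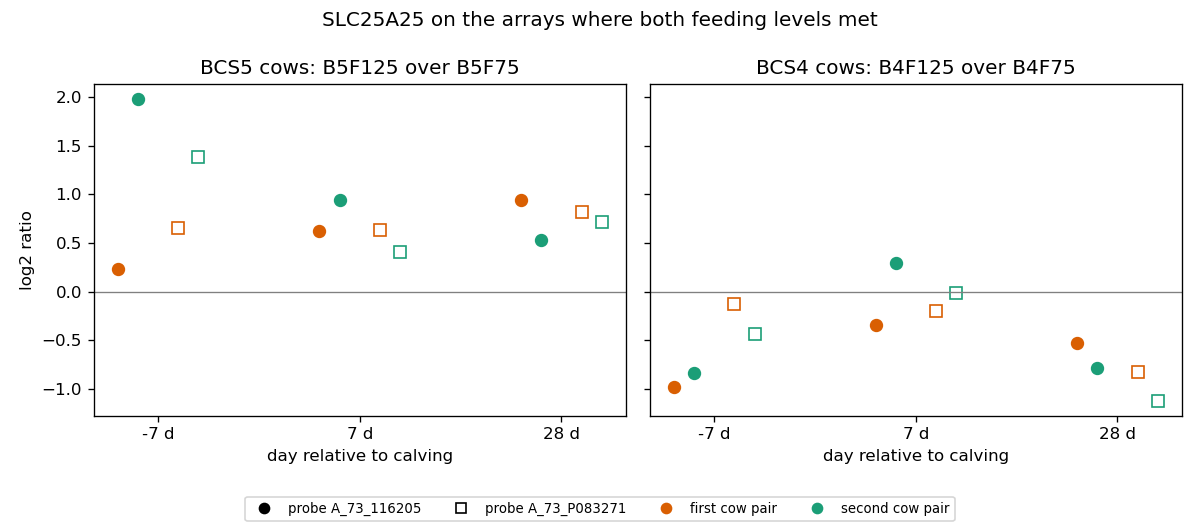
SLC25A25 on the 12 arrays where both feeding levels met in cows of 1 BCS, as log2 ratio of F125 over F75 by day. Symbols mark the 2 probes and colours the 2 cow pairs of each BCS. In BCS5 cows all points lie above 0 and in BCS4 cows all but 1 lie below it.

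In the fit across all arrays, which also uses indirect paths through other groups, the SLC25A25 differences were smaller. B5F125 vs B5F75 was at 0.77 ± 0.34 at −7 d, 0.28 at 7 d, 0.32 at 28 d and 0.46 ± 0.24 over the days. B4F125 vs B4F75 was at −0.61 ± 0.34 at −7 d, 0.00 at 7 d, −0.27 at 28 d and −0.29 ± 0.24 over the days. The arrays that crossed the BCS groups were less even. Those of B5F125 over B4F125 read 0.42 and 1.28 at −7 d, −1.05 and −0.95 at 7 d, and −0.67 and −0.32 at 28 d, so they lay above 0 before calving and below it after. The difference between these feeding effects, tested as the BCS by feeding interaction, was 0.75 ± 0.34 (95% interval 0.06 to 1.44, adjusted p = 0.999 by the limma fit). It did not pass the threshold, which 0.521% of all genes and no member did. With each of the 16 cow pairs left out in turn, the difference ran from 0.56 to 0.98. Its p in the limma fit then reached up to 0.143, and it passed the threshold in none of these fits. Without the 12 arrays that compared days, or with their channels exchanged, it passed the threshold. Its size of 0.75 could not change there, since arrays within 1 treatment carry no information on this difference. Only the spread and the p did. Of all members 1 had p under 0.05 in this interaction, or 2.17%, against 3.69% of all genes. Cholangiocyte markers, 7 of 8 measured, had a median of −0.44 in the same interaction with none called, and the 9 macrophage markers were all above 0 with a median of 0.33 and none called. Their part in the SLC25A25 value was not tested.

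Other members in BCS5 cows had differences that rested on single days. SLC25A33 read −0.68 and −1.80 on the 2 direct arrays at −7 d, 0.25 and 0.22 at 7 d, and −0.26 and 0.15 at 28 d, with the low arrays at −7 d. The fit gave −0.88 ± 0.33 at −7 d, 0.05 at 7 d, −0.32 at 28 d and −0.38 ± 0.23 over the days. It passed the fold but not the p of the threshold at −7 d, and was called there with the ratios as deposited. SLC25A37 read 0.46 and 0.66 at 7 d (fitted 0.52 ± 0.22), and 5 of its 6 direct arrays were above 0. That value averaged 5 probes, with small whole-number ratios on 0% to 75.6% of their arrays. Without the dim probes SLC25A37 was at 0.03 ± 0.21, so its difference at 7 d came from dim probes. The 7 erythroid markers measured were all above 0 at 7 d too, with a median of 0.47 and none called, and their part in the SLC25A37 value was not tested. SLC25A35, an orphan carrier measured on 32 arrays, was fitted at 1.65 ± 0.73 at 7 d although its 1 measured direct array read −0.06. With the channels of the day arrays exchanged it was at −0.03. SLC25A12 was at 0.80 ± 0.40 at 7 d, and the SLC25A4 probe A_73_P510583 had the lowest p above 0 at 28 d (0.76 ± 0.48), from arrays at 3.18 and −0.70.

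In BCS4 cows, B4F125 vs B4F75 gave no called member at −7, 7 or 28 d or over the days, where 0.477%, 1.02%, 0.853% and 0.489% of all genes were called. A p under 0.05 was met by 1, 1, 3 and 1 members, or 2.17%, 2.17%, 6.52% and 2.17%, against 3.46%, 5.33%, 4.7% and 3.76% of all genes. Over the days 23 of 46 members lay on each side of 0, with a median of 0.00. At single days the medians were −0.11, 0.09 and 0.03. SLC25A41, a relative of SLC25A25, was the member below 0 on 6 of 6 direct arrays (−0.43 to −0.07), against 1.81% of all genes, with a fitted −0.10 ± 0.20 over the days. SLC25A45, whose substrate is less settled, was at 0.60 ± 0.25 at −7 d and 0.43 ± 0.18 over the days. It read 1.12 and −0.04, 0.14 and 0.20, and −0.44 and 1.32 on the direct arrays of −7, 7 and 28 d, so the cow pairs parted on 2 of 3 days. With the brighter of its probes, A_73_106332, alone the differences were 0.01 and 0.14.

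At 7 d SLC25A36, a pyrimidine nucleotide carrier with a single dim probe (87.2% small ratios), was at 0.78 ± 0.34, from direct arrays at 1.32 and −0.64. SLC25A31 had the lowest p below 0 at 7 d (−0.65 ± 0.43). At 28 d the SLC25A3 probes A_73_P487598 and A_73_P031246 were at 0.98 ± 0.38 and 0.73 ± 0.31. Their direct arrays read 0.36 and 0.81, and 0.54 and 0.77, all above 0. At −7 d A_73_P487598 was on the other side, at −1.16 and −0.92. These are the 2 probes of the name that correlated best (r = 0.61). SLC25A24 was the lowest member at 28 d (−0.70 ± 0.34). SLC25A46, an outer-membrane member of the family, and SLC25A47 were at −0.56 ± 0.29 and −0.60 ± 0.33 at −7 d.

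**Figure D4:**
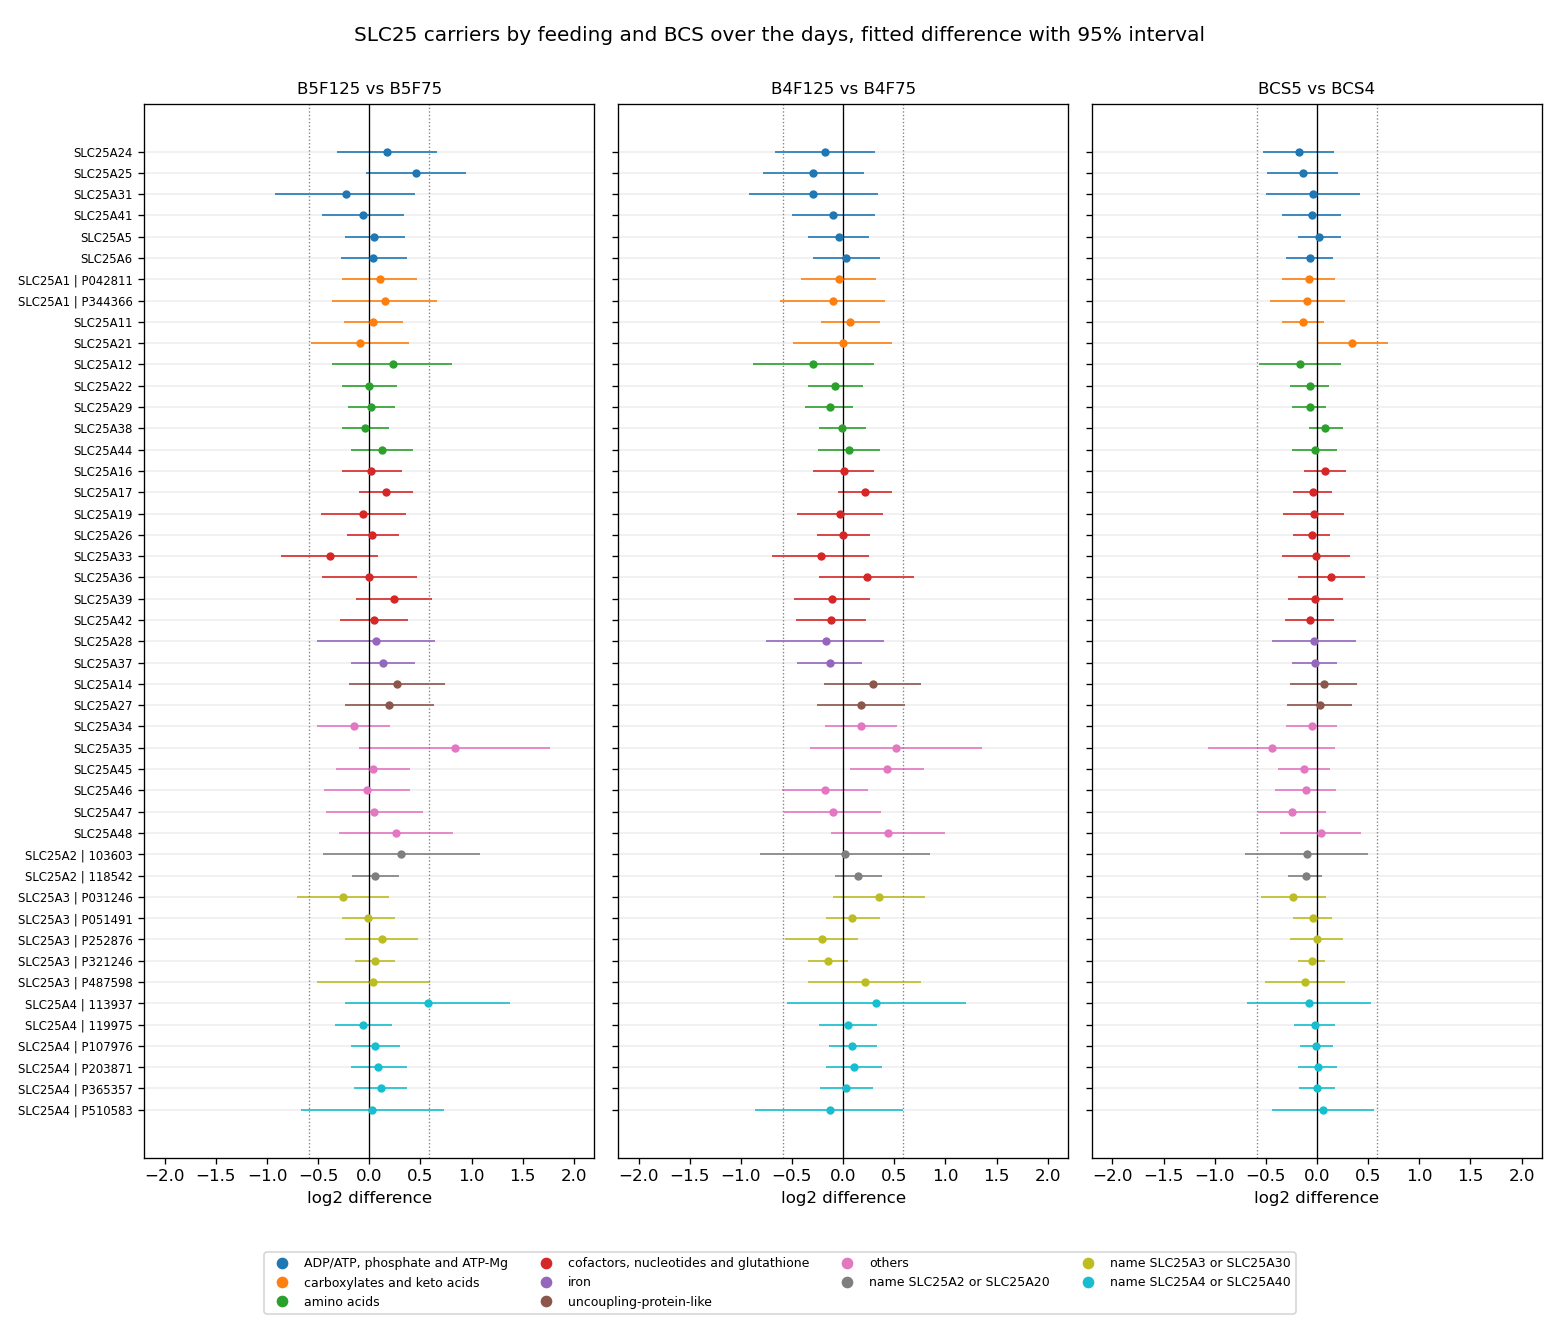
Fitted log2 difference by feeding within each BCS over the days, and by BCS, for each of the 46 SLC25 members with its 95% interval. Dotted lines mark a 1.5-fold difference. No member passed the threshold in any panel, and the BCS intervals are the narrowest, with 42 of 46 inside the lines.

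The effect of BCS itself on the carriers was small and the most tightly bounded of all. In BCS5 vs BCS4, averaged over feeding and days, no member passed the threshold, against 0.214% of all genes, and 1 (2.17%) had p under 0.05, against 2.88%. The interval stayed within 1.5-fold for 42 of 46 members, since this comparison had a median SE of 0.13 over members, beside 0.22 between days and 0.26 for feeding on a single day. Differences ran from −0.44 (SLC25A35) to 0.34 (SLC25A21, ± 0.17). Below 0 lay 35 members, with a median of −0.05, where 50% of all genes lay below 0 with a median of 0.00. Probes of 1 written name count separately among these members. The ADP/ATP carriers SLC25A5 and SLC25A6 were at 0.02 ± 0.10 and −0.07 ± 0.11, SLC25A11 at −0.14 ± 0.10 and the citrate or dicarboxylate probes of SLC25A1 at −0.08 and −0.10. The SLC25A3 probe A_73_P031246 had the lowest p below 0 (−0.23 ± 0.16), and it was also the lowest in the interaction (−0.62 ± 0.31).

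How well probes of the same name moved together set how much a carrier's value could say. Over 13 pairs of probes of 1 gene, both bright, the median Pearson r over the arrays was 0.42 (−0.04 to 0.93). It was 0.45 over 18 pairs whose dimmer probe had 10 to 50% small ratios, and 0.16 (−0.29 to 0.68) over 20 pairs with 50% or more. These probes share an array, its RNA and its labelling, so r describes them and tests nothing. SLC25A39 had 4 probes at r 0.66 to 0.93 with each other and 1 more, A_73_105232, at −0.04 to 0.27 with them. SLC25A6 had 3 probes at 0.69 to 0.93 and 1 more, A_73_101255, at 0.15 to 0.29. Among the 6 probes written SLC25A4, A_73_P107976, A_73_P203871 and A_73_P365357 moved together (0.78 to 0.86), A_73_119975 less so (0.23 to 0.52), and the dim A_73_P510583 ran the other way (−0.37 to −0.26). Of the 2 probes written SLC25A2, r was −0.23. Whether such a split marks the pair of genes behind a name was not tested.

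**Figure D5:**
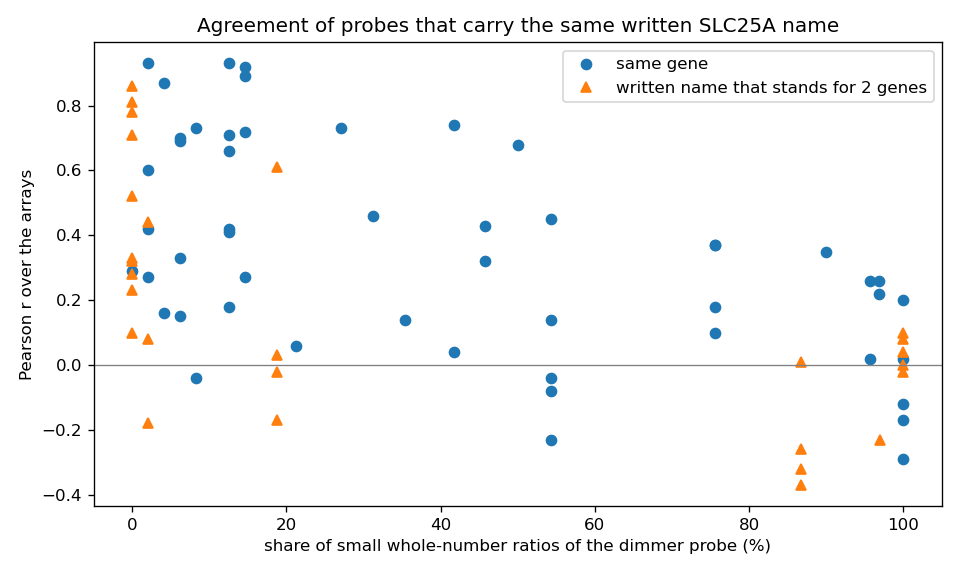
Pearson r over the arrays between probes of the same written SLC25A name, against the share of small whole-number ratios (%) of the dimmer probe. Circles are probes of 1 gene and triangles probes of a name that stands for 2 genes. Pairs with a bright dimmer probe spread from −0.18 to 0.93, and no pair at 50% or more exceeds 0.68.

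Over the 13 comparisons, 598 tests of members gave 29 with p under 0.05, or 4.85%, against 5.25% of the tests of all genes. They gave 1 call and none with an adjusted p under 0.05 in the limma fit. Beside the SLC25 family, a list of other genes for transport across mitochondrial membranes, 27 of 34 measured, had 2 called at 7 vs −7 d. They were BRP44L, now MPC1, a subunit of the mitochondrial pyruvate carrier (−0.64 ± 0.17, adjusted p = 0.179), and CPT1B, a carnitine palmitoyltransferase known from muscle (−0.93 ± 0.28, adjusted p = 0.282). CPT1A, the liver form, was at 0.01 ± 0.16 and CPT2 at −0.40 ± 0.18. The list had a median of −0.04 there, against −0.18 for the SLC25 members. In feeding comparisons TSPO, a cholesterol-binding outer-membrane protein, was the 1 called gene of that list (0.65 ± 0.20 in B5F125 vs B5F75 at 7 d, adjusted p = 0.77).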

How the data were processed

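Liver RNA was measured on 48 two-colour arrays. The deposited table holds log2 ratios. The study states that it adjusted its data for dye (Lowess) and array. In the deposited values, however, 68.2% of spots had exact ratios of small whole numbers on at least 10% of their arrays. The array medians ran from 0 to 0.5213. The values were thus read as coming from before that adjustment. Each array was centred on its median, and dye bias that depends on intensity was not removed. A GenePix scanner and GenePix Pro were used to read the arrays. Which dye is on top is not given in the sources used here. A further 48 value columns, named by slide and position and matching no sample label, were not used. Of 34667 named spots, 361 written names were restored with a 0 through 37063 RefSeq genes, 291 names (1094 spots) fitted several genes and were kept apart by probe, and 24 had become dates.

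The ratios were fitted in R 4.3.3 with limma 3.58.1 (moderated variances) and statmod 1.5.0: 12 group means, a term for dye and, as random block, the cow pair (correlation 0.131), by generalised least squares over the measured arrays, on 15946 genes or probes with at least 24 arrays. Direct-array values are the centred ratios. Genes were called at p at most 0.01 and 1.5-fold, the thresholds of the study, two-sided, with Benjamini-Hochberg adjusted p over all genes beside. Replicates were cow pairs, and no 2 arrays held the same pair of samples. Arrays give no counts, and their number limits the precision.

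Named were every called member, for each comparison the members of lowest p above and below 0, and the best known carriers of each group. Further members were named for their direct arrays or for p under 0.05, after their values were seen. Members and lists were chosen with earlier results of these data known. On simulated data for 15946 genes, 76% of genes changed by 2-fold and 36% of those changed by 1.5-fold were called at 7 vs −7 d, with 0.794% of unchanged genes. For B5F125 vs B5F75 at −7 d these shares were 70%, 26% and 0.832%.

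Alternatives were probes one by one, other minimums of arrays, no block, no dye term, no centring, scaling, a mixed model per gene, adjusted p, single days alone and each cow pair left out. Chosen after seeing the data were leaving out dim probes, the 2 arrays with fewest blanks or the 12 arrays that compare days, and exchanging the channels of those 12.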

Additional observations from a re-analysis of the deposited data

Results flagged for a closer look

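Among 98 sets of 4 direct arrays between days, 8 had an array whose gap to the nearest other, as a share of the range, exceeded Dixon's critical value, and chance alone marks about 1 in 20 sets. The array of B4F75 stood apart for SLC25A28 at −1.70 (7 vs −7 d) and at 0.87 (28 vs 7 d), for SLC25A38 at −0.58 (7 vs −7 d) and for the SLC25A4 probe A_73_119975 at −0.97 (28 vs −7 d). The array of B5F75 stood apart at 7 vs −7 d for the SLC25A3 probes A_73_P252876 at 1.36 and A_73_P321246 at 0.39. The array of B4F125 stood apart at 28 vs −7 d for the SLC25A1 probe A_73_P042811 at 1.14 and the SLC25A4 probe A_73_P365357 at 0.76. No cause was tested.

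The effect of feeding on SLC25A25 differed between BCS5 and BCS4 cows by 0.75 ± 0.34 on the log2 scale (interaction, adjusted p = 0.999 in the limma fit), which did not pass the threshold.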

How the results depend on the processing

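With the threshold set to an adjusted p under 0.05, no member was called in any comparison. The single call, the SLC25A2 probe A_73_103603 in B5F125 vs B5F75 at −7 d, became 0 calls with no dye term, with scaling, with the mixed model, with adjusted p, with the day alone and without the 2 arrays with fewest blanks. With values as deposited there were 2 calls there, SLC25A33 being added. Without the replicate block the count stayed at 1, but the member changed: the probe was at 1.55 and not called, and SLC25A33 was called at −0.88. SLC25A33 was also the 1 call with genes on all arrays and without dim probes, and SLC25A25 the 1 call without the day arrays or with their channels exchanged. The same cow pair met on 3 days, which is the pairing the block uses, and the block changed no other count.

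Comparisons with 0 calls gained 1 call each as follows: at 7 vs −7 d with values as deposited (SLC25A1 probe A_73_P042811), at 28 vs −7 d with single probes or without dim probes (SLC25A21) and with values as deposited or the mixed model (SLC25A3 probe A_73_P487598), in B4F125 vs B4F75 at 7 d with scaling or without the day arrays (SLC25A36) and at 28 d with the day alone (SLC25A3 probe A_73_P487598), in B5F125 vs B5F75 at 7 d with the day alone (SLC25A4 probe A_73_113937) and at 28 d without the 2 arrays with fewest blanks (SLC25A4 probe A_73_P510583), and in the interaction without the day arrays or with their channels exchanged (SLC25A25).

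With each cow pair left out, the counts ran from 0 to 2 at 7 vs −7 d, 0 to 3 at 28 vs −7 d, 0 to 2 at 28 vs 7 d, 0 to 1, 0 to 2 and 0 to 1 in B4F125 vs B4F75 at −7, 7 and 28 d, and 0 to 2, 0 to 1 and 0 to 1 in B5F125 vs B5F75. They stayed at 0 over the days, for BCS and for the interaction. Differences between days turned their sign with the channels of the day arrays exchanged, in 46, 44 and 45 of 46 members at 7 vs −7, 28 vs −7 and 28 vs 7 d. Under the other settings the sign of 2 named day differences changed, and that of 1 feeding difference changed with the channels exchanged: SLC25A44 at 28 vs −7 d was 0.01 with single probes, SLC25A35 in B5F125 vs B5F75 at 7 d was −0.03 with the channels exchanged, and SLC25A28 at 28 vs −7 d ran from −1.18 to 0.24 with a cow pair left out. The causes were not tested. Precision is limited by 2 cow pairs per direct feeding comparison, 1 per treatment between days, and dim spots.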

Other observations

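The genes of other liver cells gave the following values. Cholangiocyte markers (7 of 8 measured) were all below 0 in B5F125 vs B5F75 at −7 d (median −0.46) and at 7 d (median −0.63, 1 called). Hepatocyte markers (13 of 14 measured) had medians of 0.08 at 7 vs −7 d and 0.20 in B5F125 vs B5F75 at −7 d, with none called in either. Skeletal muscle markers (11 of 14 measured), a check on tissue of the body wall, had medians of 0.07, 0.05 and −0.01 in the 3 comparisons of days, with none called. In B4F125 vs B4F75 at −7 d they had a median of 0.15, and NEB, which encodes the muscle protein nebulin, was called at 2.62 ± 0.64 (adjusted p = 0.695 in the limma fit). The 9 neutrophil markers had a median of −0.23 in B4F125 vs B4F75 at 7 d. Of these, 4 had p under 0.05 and 2 were called below 0, S100A9 at −1.66 ± 0.39 (adjusted p = 0.519) and S100A12, with a smaller difference (adjusted p = 0.657), where no SLC25 member was called. Neutrophil calls elsewhere were S100A8 at 28 vs 7 d (1.05 ± 0.37) and LTF in BCS5 vs BCS4 (0.86 ± 0.29). The part of these cells in the carrier values was not tested.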
